A study of Homo sapiens with 4 samples.

Results

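The genes described here are 10 genes of prostaglandin handling, out of 33886 gene symbols summed from the deposited tables: PTGS1, PTGS2, PTGES, PTGES2 and PTGES3 for synthesis, SLCO2A1 and ABCC4 for transport, HPGD for breakdown, and PTGER2 and PTGER4 as receptors. SLCO2A1 was chosen by its measured fall with doxycycline in these same libraries, and the other 9 for their known roles with results of these data in view. Their fold changes are therefore descriptions with no p-value. Counts of members past a limit are given below only beside the share of all genes, and nothing is read from them. All libraries came from HK-2 cells, a human proximal tubule line of the kidney made immortal, which carried a Tet-On cassette for HA-tagged PRCC-TFE3, a fusion of PRCC with the transcription factor TFE3. In Doxy(+), 2 libraries were made from cells given 0.2 µg/ml doxycycline for 24 h, and in Doxy(-), 2 libraries from cells of the same engineered line kept without it. Both groups were grown in 1.5% FCS in advanced DMEM/F-12, with penicillin and streptomycin, and the study's methods also name blasticidin S and puromycin for selection. The sources used here do not say whether the line is 1 clone. No doxycycline-treated HK-2 cells without the transgene were analysed here, so doxycycline itself and PRCC-TFE3 cannot be told apart.

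Prostaglandins are short-range lipid signals made from arachidonic acid, which phospholipases cut from membrane lipids. The cyclooxygenases PTGS1 and PTGS2 convert arachidonic acid to prostaglandin H2, which the prostaglandin E synthases turn into prostaglandin E2. The organic anion transporter SLCO2A1 carries prostaglandins into cells, where HPGD oxidises them, while outside the cell prostaglandin E2 acts on receptors such as PTGER2 and PTGER4, which raise cAMP. In the kidney this system takes part in the control of blood flow and of salt and water handling.

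First, the promoters of PTGES and PTGER2 are shown, so that the starts of the genes can be read beside their levels. These are the 2 members other than SLCO2A1 past the adjusted p limit given below, a choice for display only. The sequences are from RefSeq (GRCh38.p14), which gave a promoter window, from 250 bases before to 50 after a start, for 9 of the 10 genes and 13 windows in all. SLCO2A1 had no entry. PTGES, the inducible microsomal prostaglandin E synthase, was higher in Doxy(+), and PTGER2, a receptor for prostaglandin E2, was lower. The 250 bases before the start are printed 5′ to 3′ in lower case, for PTGES at chr9:129753043-129753292 on the minus strand and for PTGER2 at chr14:52314062-52314311 on the plus strand.
PTGES: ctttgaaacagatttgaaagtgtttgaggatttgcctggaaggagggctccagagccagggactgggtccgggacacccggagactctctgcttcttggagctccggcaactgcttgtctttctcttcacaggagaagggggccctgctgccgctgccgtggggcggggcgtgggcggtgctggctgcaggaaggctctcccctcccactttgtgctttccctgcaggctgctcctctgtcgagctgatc
PTGER2: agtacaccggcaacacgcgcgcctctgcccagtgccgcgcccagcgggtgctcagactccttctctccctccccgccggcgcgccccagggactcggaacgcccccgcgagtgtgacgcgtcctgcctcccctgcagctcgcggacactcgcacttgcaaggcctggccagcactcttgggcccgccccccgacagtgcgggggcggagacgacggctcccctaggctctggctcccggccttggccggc
Both strands of all 13 windows were searched for 5 motifs. CACGTG is the core of the element bound by TFE3 and its relatives, TCACGTGA its longer form, and TCATGTGA a variant that does not contain CACGTG. The others were the cAMP response element TGACGTCA and the AP-1 site TGAGTCA. TCACGTGA contains CACGTG. A match was found in 2 windows, both to CACGTG, in the second PTGES2 window at position -128 from the start and in the first HPGD window at position 41. The 30 bases around each match are printed 5′ to 3′ with CACGTG in capitals, for PTGES2 at chr9:128128255-128128284 and for HPGD at chr4:174522439-174522468, both on the minus strand.
PTGES2: cgaaatcagagaCACGTGgtttccaaggcc
HPGD: ccagcagtggctgcaccatgCACGTGaacg
Of all 35116 RefSeq windows of this length, CACGTG was in 7.26%, TCACGTGA in 0.98%, TCATGTGA in 1.0%, TGACGTCA in 1.85% and TGAGTCA in 4.95%. The windows of PTGES and PTGER2 held none of the 5.

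Next, the libraries were examined. The deposited estimated counts summed to between 14042545 and 16618401 reads per library. TFE3 stood at 66.9 and 69.1 CPM in Doxy(-), against 367.2 and 321.8 CPM in Doxy(+), with no overlap. CPM is a count scaled to a common library total by the TMM method, and compares 1 gene between libraries. The summed level of 8 proximal tubule markers lay at 100.8 and 102.0 TPM in Doxy(-), against 127.2 and 125.7 TPM in Doxy(+). Most of this sum was GGT1 (93.1 and 96.3 against 114.9 and 116.8 TPM). By edgeR, GGT1 and MME rose by log2 fold changes of 0.25 and 1.31 (adjusted p = 0.0407 and 0.00259). SLC34A1 had a log2 fold change of -1.64 (adjusted p = 0.0762), CUBN one of 0.36 (adjusted p = 0.68) and SLC5A2 one of -0.06 (adjusted p = 0.891). AQP1, LRP2 and ANPEP were not tested. TPM corrects for transcript length, and compares genes within a library. Of these 8 markers, 3 (GGT1, MME and SLC5A2) reached 1 TPM in all 4 libraries, whereas AQP1, LRP2, CUBN, ANPEP and SLC34A1 did not. Of 7 epithelial or renal lineage markers, 5 reached 1 TPM in all libraries (PAX8, KRT8, KRT18, EPCAM and CDH2), and PAX2 and CDH1 did not. Their sum was 1193.6 and 1227.7 TPM in Doxy(-), against 1133.1 and 1154 TPM in Doxy(+). KRT8, KRT18 and CDH2 fell by 0.24, 0.24 and 0.45 on the log2 scale (edgeR adjusted p = 0.00369, 0.0139 and 0.00107). PAX8 and EPCAM did not pass, with log2 fold changes of 0.06 and -0.20 (edgeR adjusted p = 0.216 and 0.0777). PAX8 was higher in both Doxy(+) libraries, at 397.8 and 424.4 TPM against 448.5 and 462.1 TPM. The transcript by which Ensembl and RefSeq represent KRT8 was not among those analysed here. Of 5 fibroblast markers, COL1A1 and DCN reached 1 TPM in all libraries, and the sum was 20.3 and 14.8 TPM against 14.5 and 10.9 TPM. Of 5 collecting duct markers, HSD11B2 and SCNN1A did, and AQP2 was listed at 0. None of 5 endothelial markers reached 1 TPM in all libraries, and the endothelial genes CDH5 and KDR and the T cell gene CD3E were listed at 0 in all 4. Whether any of these marker levels has a part in the values of the prostaglandin genes was not tested. Since the RNA is from bulk cells, fewer expressing cells and less RNA per cell cannot be told apart.

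All 10 genes passed the filter on low counts, and 9 had a count of at least 10 in every library. PTGER4 was the exception and passed only through its Doxy(-) counts. In a fit across 13542 genes with edgeR's quasi-likelihood test, 1 member, PTGES, had an adjusted p under 0.05 (Benjamini-Hochberg) with a higher level in Doxy(+), beside 9.81% of all genes. Likewise 2 members, SLCO2A1 and PTGER2, passed with a lower level, beside 9.59% of all genes. When the log2 fold change also had to be above 1 or below -1, 0 members were higher, beside 1.5% of all genes, and 1 was lower, SLCO2A1, beside 0.473%. In CPM the values of the 2 groups did not overlap for 2 members that were higher, PTGES and PTGS2, beside 31.1% of all genes. They also did not for 3 that were lower, SLCO2A1, PTGER2 and PTGER4, beside 30.0%. SLCO2A1 was chosen on this contrast and the other members with results of these data in view, so nothing is read from these counts. The median log2 fold change of the 10 genes was -0.06, and that of all genes tested was 0.00.

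**Figure D1:**
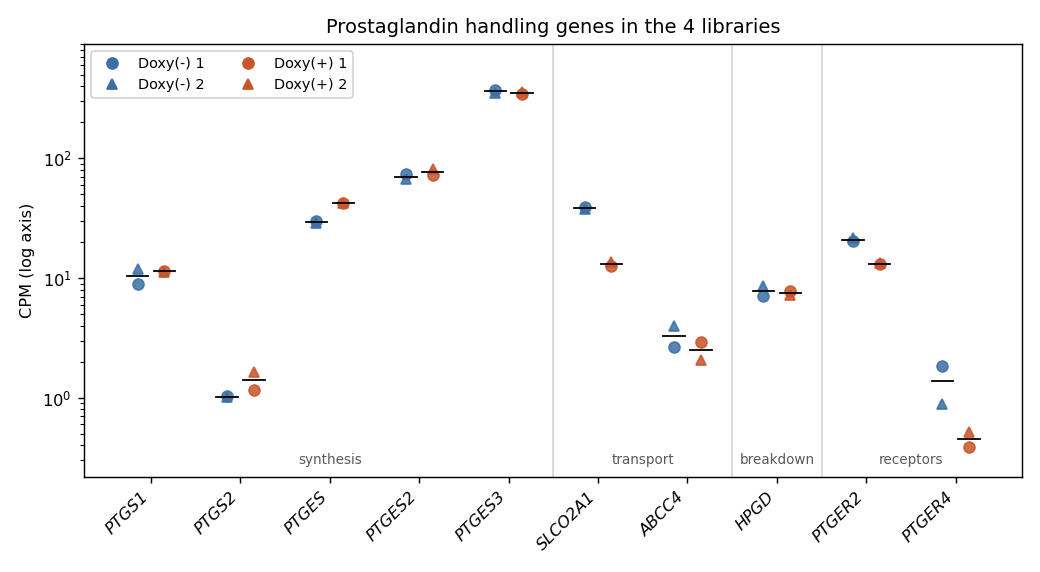
Level of each gene in each of the 4 libraries, in CPM on a log axis, grouped by role. Blue marks are Doxy(-) and orange marks Doxy(+), circles are replicate 1 and triangles replicate 2, and black bars are group means. SLCO2A1 stood at 39.1 and 37.5 CPM without doxycycline and at 12.7 and 13.6 CPM with it, while the levels of PTGES3 lay between 345.0 and 370.6 CPM in all libraries.

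To describe the transport step, SLCO2A1 was examined first. SLCO2A1 (ENSG00000174640.15, chr3:133932701-134052184 on the minus strand, hg38) encodes the prostaglandin uptake transporter. Its estimated counts were 504.0 and 551.0 in Doxy(-), against 164.0 and 183.0 in Doxy(+). These correspond to 39.1 and 37.5 CPM without doxycycline and to 12.7 and 13.6 CPM with it. Both Doxy(+) libraries were far below both Doxy(-) libraries, and the 2 libraries of each group lay close together. The group means were 38.3 ± 1.13 CPM (SD, n = 2) and 13.2 ± 0.632 CPM (SD, n = 2), which is 2.90-fold lower in Doxy(+). The fitted log2 fold change was -1.54 with a standard error of 0.082. Over 15 other ways of processing the data or leaving out a library it lay between -1.59 and -1.37.

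The fall of SLCO2A1 was carried by its main coding transcript. SLCO2A1-201, the MANE transcript (the one that Ensembl and RefSeq agree to represent the gene by), held 95.4% and 93.0% of the count of the gene in Doxy(-), against 87.1% and 95.1% in Doxy(+). The second coding transcript SLCO2A1-208 held 1.79% and 3.49% in Doxy(-), against 7.04% and 0.00% in Doxy(+), so its share varied as much between the Doxy(+) libraries as between the groups. No exon of another tested gene overlaps those of SLCO2A1 in GENCODE release 44.

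ABCC4, a transporter that exports prostaglandins and cyclic nucleotides, is measured only in part. Its MANE transcript ABCC4-214 was not among those analysed here, and 5 of its 16 annotated transcripts were. Between 79.8% and 96.1% of the summed count lay on ABCC4-205. This partial sum was 2.67 and 3.95 CPM in Doxy(-), against 2.93 and 2.06 CPM in Doxy(+), with overlapping groups. Its log2 fold change was -0.39 with a standard error of 0.318, and these values say nothing of the rest of the transcripts.

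The cyclooxygenases stood at low levels. PTGS1, the constitutive enzyme, was at 9 and 11.8 CPM in Doxy(-), against 11.5 and 11.3 CPM in Doxy(+). The groups overlapped in CPM, but not in TPM, at 2.73 and 3.78 in Doxy(-) against 3.91 and 4.44 in Doxy(+). The log2 fold change of 0.13 (SE 0.157) changed sign among the other ways of processing, from -0.05 to 0.36. PTGS2, the inducible enzyme, had counts of 13.2 and 15 in Doxy(-), against 15 and 22 in Doxy(+), or 1.03 and 1.02 CPM against 1.16 and 1.64 CPM. The groups did not overlap in CPM, but the difference rested on a few reads, and the log2 fold change was 0.46 with a standard error of 0.369. Its transcript shares were unstable as well, with PTGS2-201 holding 81.0% and 100% in Doxy(-), against 94.3% and 29.4% in Doxy(+). At this depth no difference in PTGS2 could be resolved.

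Of the prostaglandin E synthases, PTGES was the one whose groups were apart in CPM. It was at 29.8 and 29.0 CPM in Doxy(-), against 42.4 and 42.6 CPM in Doxy(+). Both Doxy(+) libraries were above both Doxy(-) libraries, and the spread within a group was below 1 CPM. The mean rose from 29.4 ± 0.554 to 42.5 ± 0.138 CPM (SD, n = 2 each), a ratio of 1.45, and the log2 fold change was 0.53 (SE 0.0606), between 0.51 and 0.57 in every other setting. PTGES-201 held at least 96.5% of the count in each library. PTGES2, which is membrane-associated, was at 73.6 and 66.5 CPM in Doxy(-), against 72.9 and 80.7 CPM in Doxy(+). The groups overlapped in CPM, with a log2 fold change of 0.13 (SE 0.076). In TPM they did not, at 74.7 and 68.8 in Doxy(-) against 75.2 and 84.1 in Doxy(+). PTGES3, the cytosolic synthase also known as the HSP90 co-chaperone p23, was the most abundant of the 10, at 370.6 and 353.3 CPM in Doxy(-), against 345.0 and 356.5 CPM in Doxy(+). Its groups overlapped too, with a log2 fold change of -0.04 (SE 0.0379). There are 5 annotated pseudogenes of PTGES3, among which reads could be divided, so its level is less certain.

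HPGD, which oxidises prostaglandin E2 to an inactive form, was at 7.06 and 8.64 CPM in Doxy(-), against 7.77 and 7.15 CPM in Doxy(+). The groups overlapped in CPM, but not in TPM, at 9.21 and 11.1 in Doxy(-) against 7.40 and 8.44 in Doxy(+). The log2 fold change of -0.08 (SE 0.166) lay between -0.39 and 0.08 under the other settings, with both signs. The -0.39 was for length-scaled counts, which take transcript lengths into account. Its counts were spread over many transcripts. The MANE transcript HPGD-202 held 25.0% and 31.4% in Doxy(-), against 54.1% and 37.2% in Doxy(+), a higher share in both Doxy(+) libraries, but its counts overlapped, at 22.7 and 39.9 in Doxy(-) and 54.1 and 35.7 in Doxy(+). HPGD-208, a transcript subject to nonsense-mediated decay, held 26.4% and 19.9% against 21.1% and 27.3%. Such shares are estimates by the quantifier and were not tested.

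PTGER2, which couples to Gs and raises cAMP, was at 20.2 and 21.4 CPM in Doxy(-), against 13.2 and 13.3 CPM in Doxy(+). Both Doxy(+) libraries lay below both Doxy(-) libraries. The mean was 1.57-fold lower, from 20.8 ± 0.895 to 13.2 ± 0.0390 CPM (SD, n = 2 each), and the log2 fold change of -0.65 (SE 0.094) lay between -0.70 and -0.56 under the other settings. PTGER2-201 held 97.8% to 98.0% of its count. PTGER4, the other Gs-coupled receptor, had counts of 24.0 and 13.0 in Doxy(-), against 5 and 7 in Doxy(+). All 4 values lay above the 3 counts that a count of 0 allows. In CPM both Doxy(+) libraries were below both Doxy(-) libraries. In TPM the groups overlapped, at 0.942 and 0.427 in Doxy(-) against 0.499 and 0.371 in Doxy(+). The log2 fold change was -1.56 with the largest standard error of the 10 genes, 0.544. It ranged from -2.01 to -0.68, the latter for length-scaled counts. PTGER4 was kept by the filter only because its level was high enough in Doxy(-), has 2 annotated pseudogenes, and its transcript PTGER4-201 held 85.1% and 95.8% in Doxy(-) against 35.2% and 62.5% in Doxy(+).

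**Figure D2:**
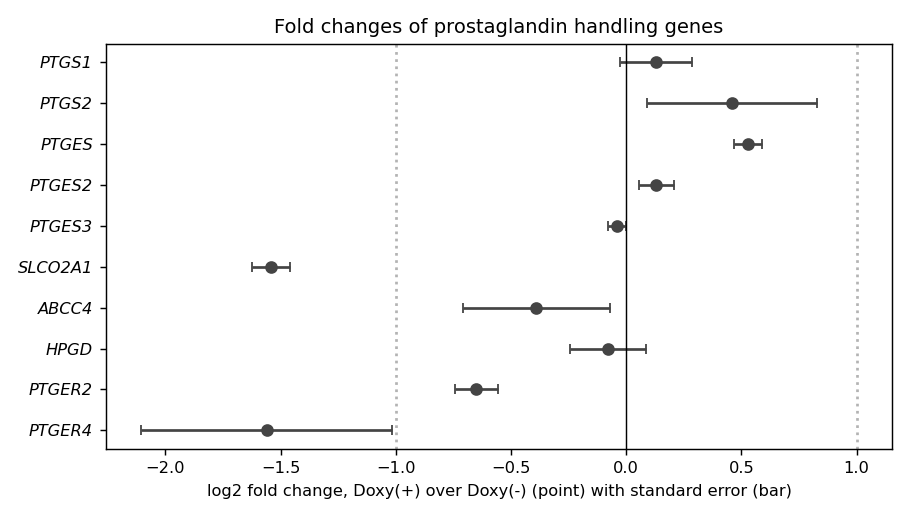
Fitted log2 fold change of each of the 10 genes, Doxy(+) over Doxy(-), as a point with its standard error as a bar. Dotted lines mark a log2 fold change of -1 and 1. SLCO2A1 at -1.54 and PTGER4 at -1.56 lie lowest, but the standard error is 0.082 for SLCO2A1 and 0.544 for PTGER4, and PTGES at 0.53 lies highest.

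Compared per length, in TPM, the order of the 10 genes in Doxy(-) ran from PTGES3 (311.9 TPM) to PTGES2 (71.8), PTGES (25.1), SLCO2A1 (15.3), PTGER2 (13.9), HPGD (10.1), PTGS1 (3.26), ABCC4 (2.88), PTGER4 (0.685) and PTGS2 (0.448). PTGS1 and ABCC4 overlapped in their library values, as did PTGER4 and PTGS2, and the other neighbours were apart. In Doxy(+) the mean TPM was 307.5 for PTGES3, 79.6 for PTGES2, 37.3 for PTGES, 9.12 for PTGER2, 7.92 for HPGD, 5.32 for SLCO2A1, 4.17 for PTGS1, 1.97 for ABCC4, 0.700 for PTGS2 and 0.435 for PTGER4, the last pair overlapping. SLCO2A1 moved from place 4 to place 6, below PTGER2 and HPGD. Its TPM of 15.5 and 15.2 in Doxy(-) stood against 5.36 and 5.27 in Doxy(+).

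Next, the genes whose levels over the 4 libraries followed that of SLCO2A1 most closely were sought among 9608 genes whose mean reached 10 CPM, by the Euclidean distance between centred log2 CPM. The nearest were F3, CXCL8, VCAM1 and TNFSF10, at distances of 0.0667, 0.118, 0.123 and 0.151. F3 encodes tissue factor, and its level was 50.1 and 46.7 CPM in Doxy(-), against 15.3 and 16.8 CPM in Doxy(+). CXCL8, a neutrophil chemokine, was at 1039.7 and 1029.6 CPM against 381.9 and 382.3 CPM. VCAM1 is an adhesion molecule and TNFSF10 the death ligand TRAIL, and their log2 fold changes were -1.47 and -1.39. The likeness is over 4 libraries in 2 groups and describes mainly the difference between the groups.

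SLCO2A1 was then set beside the other organic anion and prostaglandin transporters. Of 18 listed, 6 were at 0 in all libraries, among them SLCO1B1, SLCO1B3, SLC22A6 and SLC22A8, and 9 could be tested. By the edgeR quasi-likelihood test, 1 rose and 2 fell at an adjusted p under 0.05, beside 9.81% and 9.59% of all genes. ABCC3, a bile salt and conjugate exporter, fell from 41.8 and 42.8 CPM to 21.8 and 21.1 CPM (log2 fold change -0.98, SE 0.0669, adjusted p = 0.00047). SLCO4A1, a thyroid hormone transporter, fell by 0.26 on the log2 scale (adjusted p = 0.0245), and was not called with DESeq2 (adjusted p = 0.214). SLCO1A2, a broad organic anion transporter, stood at 0.530 and 0.849 CPM in Doxy(-), against 2.12 and 2.05 CPM in Doxy(+). As for ABCC4, its MANE transcript was not among those analysed here, so its sum is partial. SLCO1A2 met the filter on low counts only through Doxy(+), so its call as the 1 that rose is no support. The most abundant, ABCC5, stood at 154.8 and 146.3 CPM against 157.7 and 153.5 CPM, with a log2 fold change of 0.05 (SE 0.0445, adjusted p = 0.504). Among the SLCO genes in TPM, SLCO2A1 at 15.3 in Doxy(-) was near SLCO3A1 at 14.2 and below SLCO4A1 at 37.5, and in Doxy(+) at 5.32 was below both, at 14 and 33.6.

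**Figure D3:**
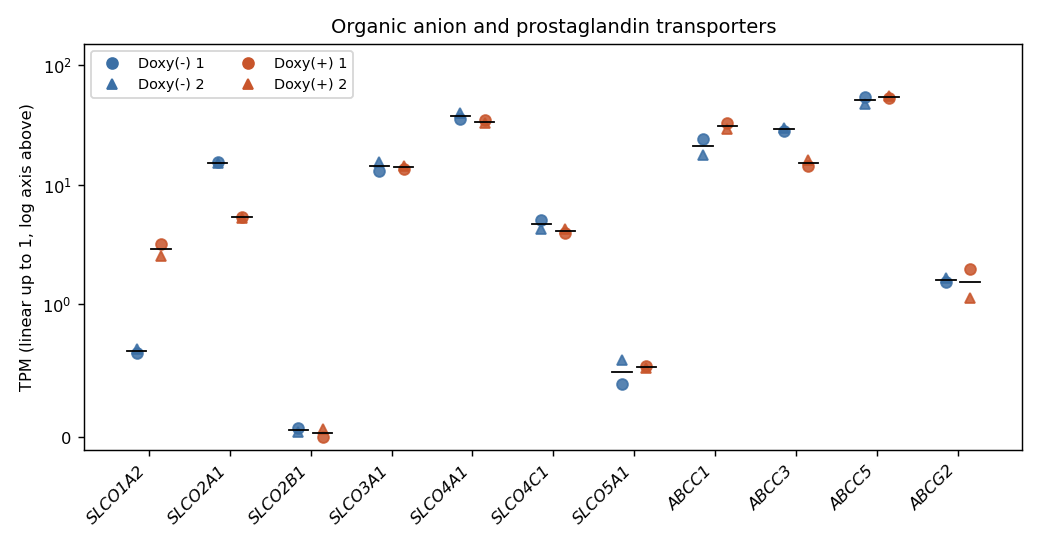
Level of SLCO2A1 and 10 other transporters in each library, in TPM on an axis that is linear up to 1 and logarithmic above. Blue marks are Doxy(-), orange marks Doxy(+), circles replicate 1, triangles replicate 2, and black bars group means. SLCO2A1, ABCC3, SLCO4A1 and SLCO4C1 were lower in both Doxy(+) libraries, and SLCO1A2 and ABCC1 were higher in both. By edgeR on counts, SLCO4C1 and ABCC1 did not pass (adjusted p = 0.219 and 0.117). ABCC5 stood near 50.8 TPM in Doxy(-) and 53.9 TPM in Doxy(+).

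The rest of the pathway was described from 90 listed genes, of which 65 were tested and 10 were at 0 in all libraries. By edgeR, 14 rose and 10 fell at an adjusted p under 0.05, beside 9.81% and 9.59% of all genes, and 41 did not pass. A role with 1 call among 8 or 9 tested genes lies near these shares. Of the 14, 3 (PLA2G4A, SLCO1A2 and ZFP36) met the filter on low counts only through Doxy(+), where they were high. Their calls, also that of ZFP36 under the other settings below, are therefore no support, and their p-values are not given. Of those that rose, 7 had a log2 fold change over 1, with PLA2G4A, SLCO1A2 and ZFP36 among them. Of those that fell, 0 went below -1, and 17 of the 65 were higher and 14 lower at an unadjusted p under 0.05. The median log2 fold change of the 65 was 0.02. These calls depended on the processing: 5 of the 24 were called under all 15 other settings, namely PLA2G4C, PLAAT3, PTGDS, ABCC3 and ZFP36, and the other 19 lost the call under at least 1, with 0 reversed.

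Upstream of the cyclooxygenases, 6 of the 10 tested genes of arachidonate release rose and 1 fell, beside 9.81% and 9.59% of all genes. Among the 6 is PLA2G4A, whose call is no support, as said above. PLA2G4A, the cytosolic phospholipase A2 that releases arachidonic acid, stood at 0.379 and 0.682 CPM in Doxy(-), against 6.95 and 3.95 CPM in Doxy(+), with counts of 4.89 and 10 against 89.5 and 53. The 2 Doxy(+) libraries were both higher but differed from each other. Its log2 fold change was 3.30 (SE 0.439), and with the transcript lengths taken into account it was 2.21 for length-scaled counts. With limma it was 2.03 on log2(TPM + 0.1) and 1.25 on log2(TPM + 1), whose larger pseudocount shrinks it, and the call was lost on both. PLA2G4C, a relative of PLA2G4A, rose from 12.1 and 13.7 CPM to 29.6 and 27.8 CPM (log2 fold change 1.15, adjusted p = 0.00108). PLAAT3, a phospholipase and acyltransferase, rose from 40.4 and 39.0 CPM to 75.7 and 78.6 CPM (adjusted p = 0.000301). PLA2G6, PLA2G15 and DAGLB rose by log2 fold changes of 0.48, 0.22 and 0.21. They were not called with DESeq2 (adjusted p = 0.307, 0.239 and 0.394). MGLL, the monoacylglycerol lipase, fell by 0.18 on the log2 scale, and by 0.09 with limma on log2(TPM + 1), where it was not called. Per length it was the most abundant of this group in Doxy(-), at a mean of 132.4 TPM, and PLAAT3 was above it in Doxy(+), at 134.5 against 124.7 TPM. Exons of PLA2G6 overlap those of a gene on the other strand, and exons of DAGLB those of a gene on the same strand. The study's methods name a stranded library kit, but the use of strand in counting is not given in the sources used here. The reads of PLA2G6 are therefore less certain, and so are those of DAGLB, which strand could not separate.

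Of 8 other prostanoid synthases tested, 1 rose and 1 fell, beside 9.81% and 9.59% of all genes. PTGDS, which makes prostaglandin D2 from the product of the cyclooxygenases, rose from 12.5 and 13.7 CPM to 42.8 and 37.0 CPM (log2 fold change 1.60, SE 0.106, adjusted p = 0.000413). AKR1B1, an aldose reductase that can form prostaglandin F2 alpha, fell by 0.30 on the log2 scale (adjusted p = 0.0107), and has 8 annotated pseudogenes. None of 3 other breakdown enzymes passed, and the most abundant, PTGR1, had a log2 fold change of -0.09 (SE 0.0555, adjusted p = 0.337). At an unadjusted p under 0.05 also 0 of these 3 were higher and 0 lower. Of 4 tested genes listed with the other prostanoid receptors, 2 fell, beside 9.59% of all genes. PTGFRN, counted among both, is not itself a prostanoid receptor. PTGFR, the prostaglandin F receptor, fell from 7.99 and 9.05 CPM to 4.97 and 5.14 CPM (log2 fold change -0.75, adjusted p = 0.0245), and PTGFRN, a membrane protein that binds it, fell by 0.18 on the log2 scale. Neither was called with DESeq2 (adjusted p = 0.147 for PTGFR and 0.197 for PTGFRN).

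**Figure D4:**
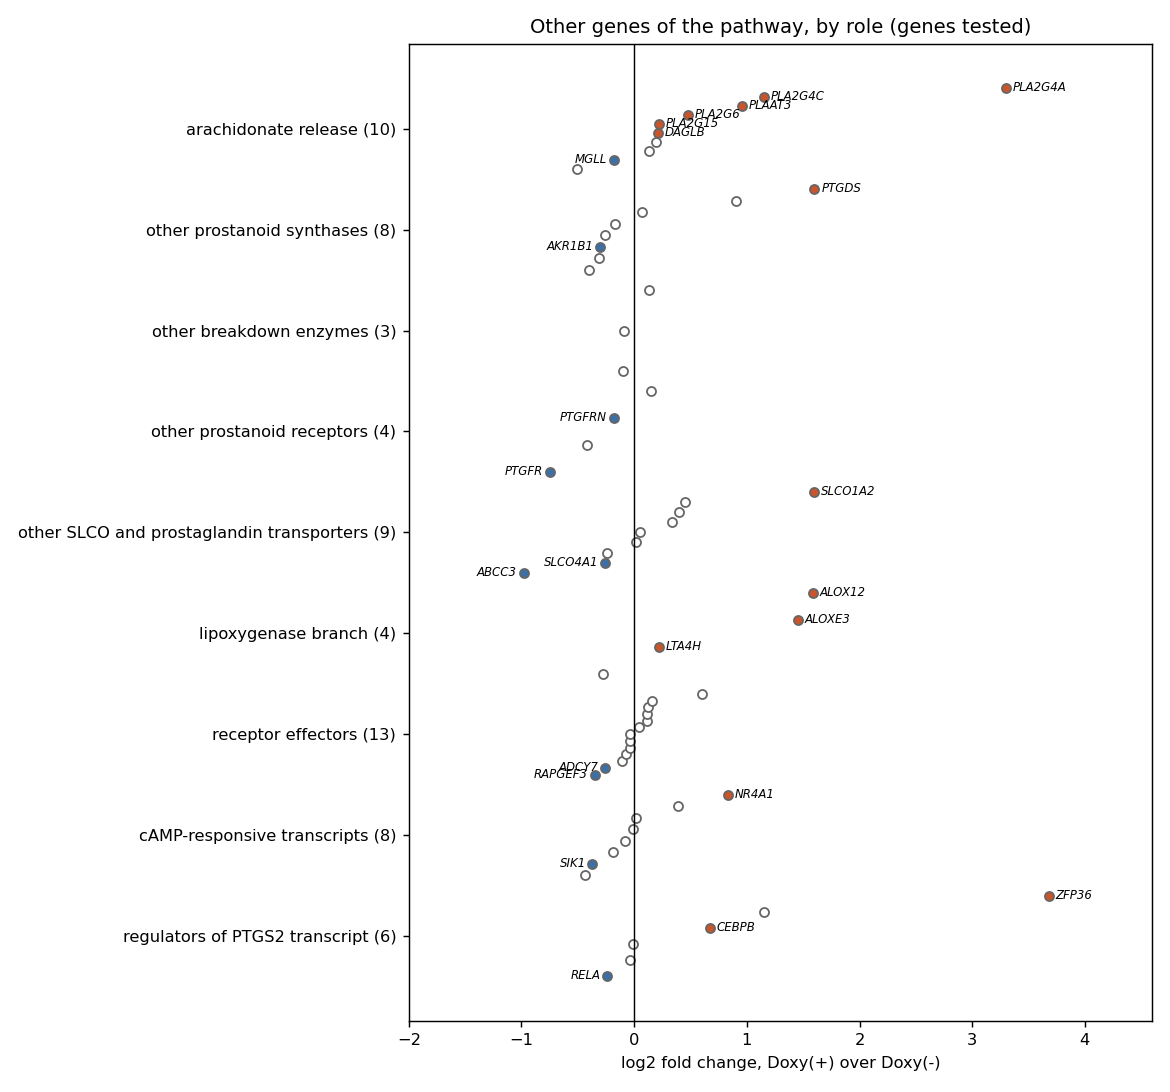
Fitted log2 fold change, Doxy(+) over Doxy(-), of each of the 65 other tested genes, grouped by role with the number tested in brackets. Filled marks have an adjusted p under 0.05 (orange higher, blue lower) and carry the gene name, and open marks do not pass. The 2 marks farthest to the right are ZFP36 at 3.68 and PLA2G4A at 3.30, which were 2.34 and 2.21 for length-scaled counts, and the lowest filled mark is ABCC3 at -0.98.

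In the lipoxygenase branch, which uses the same arachidonic acid, 3 of 4 tested genes rose, beside 9.81% of all genes. ALOX12 went from 1.39 and 1.16 CPM to 3.80 and 3.91 CPM (adjusted p = 0.0107), and ALOXE3 from 2.33 and 2.25 CPM to 6.45 and 6.11 CPM (adjusted p = 0.0055). In TPM the rise of ALOXE3 was smaller, from 2.22 and 2.38 to 3.51 and 2.86, and its log2 fold change of 1.45 became 0.43 for length-scaled counts and 0.34 with limma on log2(TPM + 1), where it was not called. That of ALOX12 went from 1.59 to 1.30 for length-scaled counts, and with limma to 1.38 on log2(TPM + 0.1) and 0.92 on log2(TPM + 1), also without a call. LTA4H, the leukotriene A4 hydrolase, rose by a log2 fold change of 0.22, and was not called with DESeq2 (adjusted p = 0.118). ALOX12 overlaps an antisense gene and both lipoxygenase genes have annotated pseudogenes, so their reads are less certain.

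Downstream of PTGER2 and PTGER4, 2 of 13 tested receptor effectors fell at the adjusted limit by edgeR, beside 9.59% of all genes. None rose at this limit, with 1 higher at an unadjusted p under 0.05. ADCY7, an adenylyl cyclase, fell by 0.26 and RAPGEF3, a cAMP-activated exchange factor, by 0.35 on the log2 scale, both with exons that overlap another gene, and the MANE transcript of ADCY7 was not among those analysed here. With DESeq2 ADCY7 was not called (adjusted p = 0.329). GNAS, the Gs alpha subunit and the most abundant of these, had a log2 fold change of -0.07 (SE 0.0267, adjusted p = 0.146). Of 8 tested cAMP-responsive transcripts, NR4A1 rose (log2 fold change 0.83, adjusted p = 0.0352), SIK1 fell (-0.37, adjusted p = 0.00472), and 6 did not pass. NR4A1 was not called with DESeq2 (adjusted p = 0.228). Over all genes, 9.81% rose and 9.59% fell at this limit.

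Of 6 tested regulators of the PTGS2 transcript, 2 rose and 1 fell, beside 9.81% and 9.59% of all genes. Among the 2 is ZFP36, whose call is no support, as said above. ZFP36, a protein that destabilises AU-rich mRNAs such as that of PTGS2, stood at 0.598 and 0.714 CPM in Doxy(-), against 6.72 and 10.3 CPM in Doxy(+). The fitted change was 3.68 on the log2 scale (SE 0.332), and 2.34 for length-scaled counts. With limma it was 2.29 on log2(TPM + 0.1) and 1.82 on log2(TPM + 1). Its reads were assigned to a transcript of 690 bases in Doxy(-) and mostly to transcripts of 1786 and 1699 bases in Doxy(+). CEBPB, a transcription factor, rose from 50.1 and 40.7 CPM to 65.4 and 78.6 CPM (adjusted p = 0.0155), and RELA, a subunit of NF-kB, fell by 0.24 on the log2 scale (adjusted p = 0.0318). RELA was not called with DESeq2 (adjusted p = 0.161). NFKB1, another subunit of NF-kB, had a log2 fold change of -0.01 (SE 0.0505, adjusted p = 0.897). Per length NFKB1 was the most abundant of them in Doxy(-), at a mean of 53.8 TPM, and CEBPB in Doxy(+), at 61.0 TPM against 55.6 TPM for NFKB1. PTGS2 itself stood between 1.02 and 1.64 CPM in all 4 libraries.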

How the data were processed

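The measured values are expression of polyadenylated RNA in 2 Doxy(-) and 2 Doxy(+) libraries of HK-2 cells. The submitters' processing notes name Trim Galore 0.6.6, cutadapt 2.5, STAR 2.7.9a and hg38, and the study's methods add RSEM and DESeq2. The tables deposited by the authors hold estimated counts (expected counts, not normalized) and TPM for 180253 Ensembl transcripts, in columns as kallisto writes them. The quantifier of these columns, its version, the Ensembl release and the use of strand are not given in the sources used here.

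Transcripts were matched to symbols through GENCODE release 44 (150691 matched, 83.6%). The rest, 9.66% to 9.89% of counts, stayed out of library sizes and tests. Counts were summed per symbol, rounded, filtered with filterByExpr (minimum count 10), scaled by TMM and fitted with edgeR 4.0.16 (glmQLFit, glmQLFTest; R 4.3.3), with group as the only term and Benjamini-Hochberg adjustment over 13542 genes. Standard errors were derived from the F statistic. The fit was tested on simulated data. In CPM, the 3 counts that a count of 0 allows came to 0.204 to 0.233, for counting error only.

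The members, the gene lists, the alternatives and the rule for names were chosen with earlier results of these data known. Named were all members, listed genes with an adjusted p under 0.05, the most abundant of each role, and the 5 genes nearest to SLCO2A1, of which 1 is not reported here. Nothing says that libraries came from separate cultures, so p-values measure only the spread between these libraries, which may be technical. Alternatives included DESeq2 1.42.0, limma 3.58.1 on log2 TPM, other filters and scalings, and leaving out each library.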

Additional observations from a re-analysis of the deposited data

How the results depend on the processing

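Over all genes past both limits (203 higher, 64 lower), the count of higher genes was 118 with limma on log2(TPM + 1) and 111 with identifiers that matched no gene tested beside the genes. The count of lower genes was 99 without a low-count filter, 33 with limma on log2(TPM + 1), 36 on log2(TPM + 0.1) and 29 with those identifiers. Leaving out 1 library at a time gave 151 to 214 higher and 68 to 90 lower genes.

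Of the other pathway genes (14 higher, 10 lower), DESeq2 called 8 and 5, limma on log2(TPM + 1) called 7 and 1, limma on log2(TPM + 0.1) called 6 and 1, length-scaled counts gave 8 and 3, and with the unmatched identifiers 6 and 2 were called. Leaving out 1 library gave 6 to 10 higher and 3 to 9 lower. Without Doxy(+) replicate 1 the counts were 8 and 3, and without Doxy(+) replicate 2 they were 6 and 3. These fits had fewer samples, and the lone library of a group was assumed to vary like the other group. The causes of the other changes were not tested. The log2 fold change of SLCO2A1 was -1.37 with limma on log2(TPM + 1), whose pseudocount shrinks it, and leaving out 1 library gave -1.59 to -1.49.

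With the replicate block, the number in the titles as a second term, 204 genes were higher and 67 lower, and 13 and 9 of the pathway genes passed. The labels do not say that equal numbers share a culture. Deviations of same-numbered libraries from the group means had a correlation of -0.0379 over 13005 genes, with only 2 pairs.

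With 2 libraries a group, PTGS2, PTGER4 and the partial sum of ABCC4 rest on few reads, and a difference in them of the size seen between libraries of a group was not detectable.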

Other observations

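One listed cAMP-responsive transcript, AREG, which encodes the growth factor amphiregulin, differed between replicate numbers and not between the groups. It stood at 11.3 and 0.494 CPM in Doxy(-) 1 and 2, and at 9.99 and 1.03 CPM in Doxy(+) 1 and 2, with a log2 fold change of -0.08 (SE 1.27, adjusted p = 0.976 by edgeR's quasi-likelihood test). It was singled out after its values were seen.

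The transcripts to which the count of ABCC3 was assigned also differed between the groups. One transcript, of 5271 bases, held 36.9% and 48.9% of the count of the gene in Doxy(-), against 0.000567% and 0.00203% in Doxy(+), whereas another, of 5326 bases, held 20.1% and 5.52% in Doxy(-), against 48.9% and 47.6% in Doxy(+). Both are annotated as subject to nonsense-mediated decay. The shares are estimates by the quantifier between overlapping transcripts, were not tested, and were singled out after the values were seen.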
